A study of Mus musculus with 6 samples.

Results

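The E2F transcription factors and their pocket protein partners were examined in MLL-AF9 leukemia cells 24 h after p53 was activated in mice with DS-5272, an oral inhibitor of the p53-MDM2 interaction. The group was defined by gene symbol, as E2f1 to E2f8, Rbl1 and Rbl2, and its 10 members were 10 of the 26082 gene names in the expression table. Each member stood on 1 line of the table, and all 10 passed the filter on low values described below.

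E2F proteins are transcription factors that sit at the promoters of genes for DNA replication and cell division, most of them as dimers with a DP protein. E2F1, E2F2 and E2F3 activate these genes late in G1, whereas E2F4 and E2F5 hold them down in resting cells by bringing in the pocket proteins p107 (Rbl1) and p130 (Rbl2), which cyclin-dependent kinases release from E2F by phosphorylation. E2F6 represses through a Polycomb complex without a pocket protein, and the atypical E2F7 and E2F8 bind DNA without a DP protein and shut E2F target genes off again during S phase. In human cells, the E2F7 gene is also known as a direct target of p53.

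The leukemia was made by retroviral transfer of MLL-AF9, a fusion oncogene of human acute myeloid leukemia, into c-Kit+ bone marrow progenitors, which were passed from mouse to mouse by transplantation. RNA was taken from leukemia cells that had been isolated from bone marrow with a cell sorter, from 3 samples of the C57BL/6J strain given vehicle and 3 given DS-5272 at 80 mg/kg by mouth 24 h earlier. All 6 samples carried MLL-AF9, the labels name no other allele, and the ages of the mice are not given in the sources used here. Nothing in the sources says whether the 6 samples came from 1 transplanted leukemia or from several, so p-values measure the spread between these samples only. The samples are called vehicle 1 to 3 and DS-5272 1 to 3 by the numbers in their labels.

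Expression was given as FPKM, fragments scaled to transcript length and library size, so that levels of different genes can be set beside each other per length. Depth was not given, and an estimate from the lowest values put it between 34900000 and 43100000 fragments in vehicle and between 23200000 and 32300000 in DS-5272 samples, so low genes were measured less precisely after the drug. The myeloid leukemia markers that had an entry (8 of 10) all had a mean of at least 1 FPKM, with sums of 4515 to 5141 FPKM in vehicle and 2602 to 3134 FPKM in DS-5272 samples. They did not move as one, since 2 were called higher and 3 lower in the test described below. Itgam was at 140 to 190.4 FPKM in vehicle and 530.2 to 1087 FPKM in DS-5272 samples, and Elane at 1579 to 2128 against 210.03 to 411 FPKM. Of the other cell types, 1 erythroid and 3 macrophage markers were called higher, 1 T cell marker was called lower, no B cell or megakaryocyte marker was called, and no NK cell marker reached the filter on low values. The erythroid sum (7 of 10 with an entry) was 2.28 to 4.18 FPKM in vehicle and 8.34 to 91.2 FPKM in DS-5272 samples. Most of this rise was Hba-a1, at 0.598 to 2.39 against 7.07 to 84.2 FPKM. Gata1 was lower, at 0.179 to 0.341 against 0.0486 to 0.123 FPKM. The macrophage sum (6 of 7) was 43.4 to 92.1 FPKM against 108 to 360 FPKM. Vcam1 alone made up 36.6 to 82.8 FPKM against 74.8 to 143 FPKM of it. The paper reports VCAM-1 protein upregulated by the drug in a c-Kit+ population. C1qa, C1qb and C1qc were each at 2.95 FPKM or less in vehicle and 6.64 FPKM or more in DS-5272 samples. Both sums were highest in DS-5272 1. The sums for B cells were 4.52 to 5.37 FPKM against 3.52 to 4.58, for T cells 1.94 to 2.54 against 1.54 to 4.79, for NK cells 0.528 to 0.966 against 1.57 to 3.67, and for megakaryocytes 1.68 to 2.08 against 4.32 to 6.95. No listed marker with an entry was at 0 in all 6 samples, and the part of these cells in the results below was not tested.

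RefSeq promoter windows, from 250 bases before to 50 bases after a transcription start on GRCm38.p6, were at hand for 8 members (10 windows), and not for E2f4 and E2f5. They were searched on both strands for the E2F site written as TTTCCCGC, TTTGGCGC, TTTCGCGC or TTTGCCGC and for the cell cycle homology region (CHR), the element read by the MuvB complex, written as TTTGAA or TTCGAA. At least 1 of the E2F letter strings stood in 2.26% of all 32851 windows, and TTTCCCGC alone in 1.07%, TTTGGCGC in 0.514%, TTTCGCGC in 0.323% and TTTGCCGC in 0.441%. TTTGAA stood in 17.9% of windows and TTCGAA in 1.56%. An E2F string was found in a window of 4 members, E2f2, E2f3, E2f7 and Rbl1, which are shown because they take in activators, an atypical repressor and a pocket protein. The upstream 250 bases of E2f3 (chr13:29986064-29986313, minus strand), E2f7 (chr10:110745189-110745438, plus strand) and Rbl1 (chr2:157204535-157204784, minus strand) are printed 5′ to 3′ along the gene, with the short E2f2 site (chr4:136172303-136172323, plus strand). Capitals mark the E2F strings, read on the opposite strand in E2f3 and E2f7, and in E2f3 also TTTGAA, which does not overlap the E2F string.
E2f2 site: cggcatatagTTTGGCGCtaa
E2f3: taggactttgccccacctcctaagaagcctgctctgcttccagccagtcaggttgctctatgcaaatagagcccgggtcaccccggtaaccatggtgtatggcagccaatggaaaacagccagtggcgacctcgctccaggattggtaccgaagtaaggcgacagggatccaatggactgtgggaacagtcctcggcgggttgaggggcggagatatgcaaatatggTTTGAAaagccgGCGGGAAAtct
E2f7: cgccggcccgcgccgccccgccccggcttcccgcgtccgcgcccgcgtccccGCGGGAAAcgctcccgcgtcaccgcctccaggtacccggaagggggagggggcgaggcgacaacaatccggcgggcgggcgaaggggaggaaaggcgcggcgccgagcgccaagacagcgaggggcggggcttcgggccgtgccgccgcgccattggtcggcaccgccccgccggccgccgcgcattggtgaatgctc
Rbl1: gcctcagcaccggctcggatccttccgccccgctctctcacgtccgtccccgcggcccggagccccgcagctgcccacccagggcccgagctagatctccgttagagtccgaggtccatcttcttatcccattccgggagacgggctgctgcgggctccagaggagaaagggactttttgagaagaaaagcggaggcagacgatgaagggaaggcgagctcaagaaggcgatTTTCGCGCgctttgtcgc

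Counted from the start site, the first base of the string lay at 40 in E2f2, after the RefSeq start used here but before the start of the gene in the GENCODE annotation given below, and before the start at -11 in E2f3, -198 in E2f7 and -18 in Rbl1. E2f8 had no E2F string in its window but had the CHR letters on the opposite strand at -20, within this stretch (chr7:48881601-48881626, minus strand).
E2f8 site: gcgggttaatTTCAAAtcgggggctg
A CHR string was also found in E2f3 at -23, in the second window of E2f2 at -31 and in Rbl2 at -201, while the windows of E2f1 and E2f6 held neither motif. The start used for the window lay 466 bases inside the RefSeq gene for E2f1, 477 for E2f8, 56 for E2f6 and 8508 for the second window of E2f2, so the first promoter of these genes was not or only partly searched there, and no match says nothing about it. A match of letters is a description and does not show that a factor binds there.

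In vehicle samples, the repressor E2f8 had the highest level of the family, at 62.1 to 69.0 FPKM, followed by the pocket-binding repressor E2f4 at 46.6 to 60.1 FPKM, and these ranges did not overlap. E2f1 and Rbl1 came next and overlapped each other (30.7 to 32.5 and 26.5 to 32.1 FPKM). E2f2, E2f6 and Rbl2 lay together between 13.7 and 18.1 FPKM, E2f7 and E2f3 lay between 3.76 and 7.96 FPKM, and E2f5 was lowest at 1.44 to 1.56 FPKM. In DS-5272 samples E2f4 had the highest mean (34.9 FPKM), ahead of E2f8 (27.5), E2f2 (20.8), Rbl2 (19.3) and E2f1 (19.2), and the ranges of these neighbours overlapped.

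**Figure D1:**
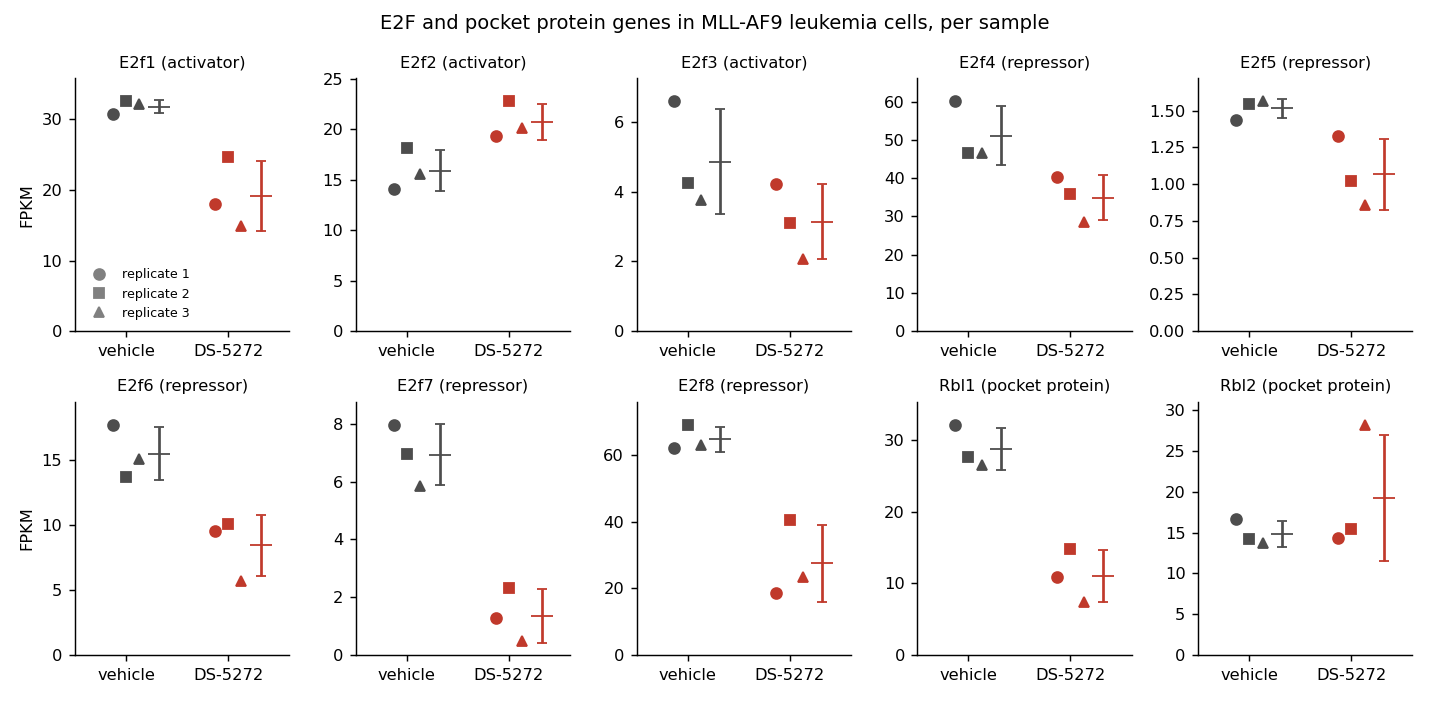
FPKM of the 10 members (y axis, linear from 0, a scale of its own in each panel) in 3 vehicle and 3 DS-5272 samples (points, with a circle, square or triangle for replicate 1, 2 or 3), with group means and error bars of 1 SD. The vehicle points lie above all DS-5272 points for E2f1, E2f4, E2f5, E2f6, E2f7, E2f8 and Rbl1, and below them for E2f2.

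The groups were compared over the 11130 genes whose mean over the samples reached 1 FPKM, with limma on log2(FPKM + 1) and a Benjamini-Hochberg adjusted p of 0.05 as the threshold. Of the 10 members, 6 fell (E2f1, E2f4, E2f6, E2f7, E2f8 and Rbl1), 1 rose (E2f2) and 3 did not pass (E2f3, E2f5 and Rbl2), where 22.0% of all tested genes fell and 24.2% rose (46.3% either way). The median log2 fold change (DS-5272 minus vehicle) was -0.63 over the members and 0.04 over all tested genes. Without overlap between the groups, 7 members were lower and 1 was higher, against 29.7% and 32.1% of tested genes (61.8% either way). With the replicate number as a block, 7 members fell and 1 rose, where 24.9% of tested genes fell and 30.3% rose. Without vehicle 3, 3 members fell, and no member rose when any 1 sample was left out. The split over all genes depended on scaling, since 2697 genes rose and 2451 fell as reported, but 1717 rose and 3536 fell when each library was brought to a common total. In bulk samples of this kind, fewer cells of a type or of a cycle phase and less RNA per cell cannot be told apart. DS-5272 3 had the lowest value among the drug samples for 7 of the 10 members. Of the 8 members with a lower mean after DS-5272, 5 stayed highest in DS-5272 2.

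**Figure D2:**
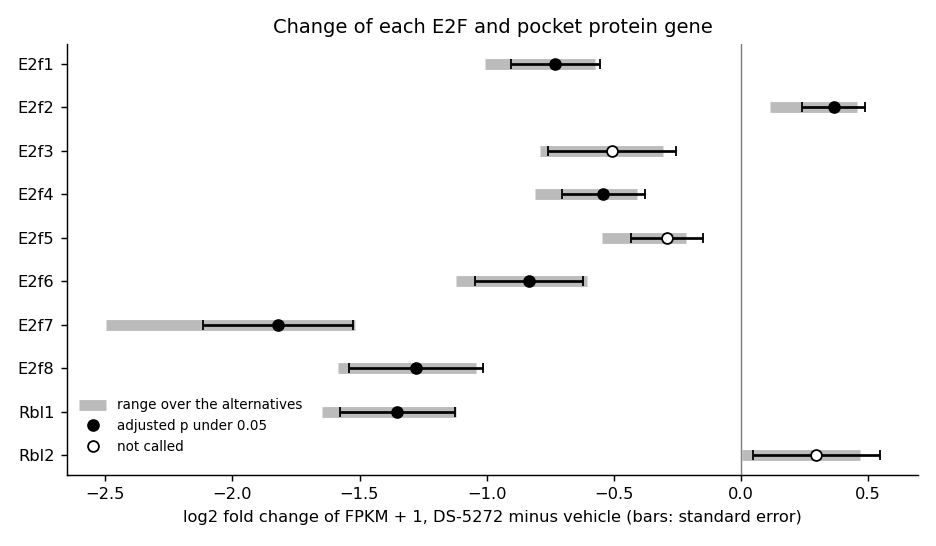
Log2 fold change on the log2(FPKM + 1) scale, DS-5272 minus vehicle, of each member (x axis) with bars of 1 limma standard error, grey bands for the range over the alternative settings, and filled points for members past the adjusted p of 0.05. E2f7, Rbl1 and E2f8 lie farthest below 0 at -1.82, -1.35 and -1.28, and of the 2 members above 0, E2f2 at 0.37 is filled and Rbl2 at 0.30 is open.

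The 3 activators did not move together. E2f1, which also has known pro-apoptotic targets, was at 30.7, 32.5 and 32.2 FPKM in vehicle 1 to 3 and at 17.99, 24.6 and 14.9 FPKM in DS-5272 1 to 3. Every drug sample lay below every vehicle sample, and the drug samples were spread more widely. E2f1 fell by 0.73 on the log2 scale (SE 0.18, limma adjusted p = 0.0157), from a mean of 31.8 ± 0.966 to 19.2 ± 4.96 FPKM (SD, n = 3 each). The adjusted p was 0.0575 without vehicle 2 and 0.0520 without vehicle 3, with log2 fold changes of -0.71 and -0.72. E2f1 lies at chr2:154559407-154569892 on the minus strand of GRCm38, and its exons overlap those of no other gene.

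E2f2, the activator best known from blood and lymphoid cells, went the other way. It was at 14.0, 18.1 and 15.6 FPKM in vehicle 1 to 3 and at 19.4, 22.8 and 20.1 FPKM in DS-5272 1 to 3. Each drug sample was above each vehicle sample, with a gap between 18.1 and 19.4 FPKM. E2f2 rose by 0.37 on the log2 scale (SE 0.12, 95% interval 0.07 to 0.66, limma adjusted p = 0.0478), from a mean of 15.9 ± 2.05 to 20.8 ± 1.78 FPKM. This call was at the edge of the threshold and was lost in 12 of 16 alternatives, with an adjusted p of 0.0527 to 0.142 when any 1 sample was left out and of 0.525 after scaling to a common total. The direction stayed, and under each scaling E2f2 lay 0.31 to 0.34 above the median of all tested genes on the log2 scale. The erythroid sum given above (mostly Hba-a1 after the drug) and the macrophage sum were also higher in the drug samples, and their part in the E2f2 values was not tested. E2f2 lies at chr4:136172394-136196057 on the plus strand.

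E2f3, the remaining activator, was at 6.58, 4.24 and 3.76 FPKM in vehicle 1 to 3 and at 4.23, 3.10 and 2.08 FPKM in DS-5272 1 to 3. The groups overlapped, because DS-5272 1 was above vehicle 3, but in each same-numbered pair the drug sample was lower. The log2 fold change was -0.51 (SE 0.25, 95% interval -1.11 to 0.09, limma adjusted p = 0.140), and with the replicate number as a block the adjusted p was 0.0154. E2f3 lies at chr13:29906575-29986063 on the minus strand.

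E2f2 was below E2f1 in all 3 vehicle samples and in DS-5272 2, and above it in DS-5272 1 and 3. The ratio of E2f2 to E2f1 FPKM was 0.457, 0.557 and 0.485 in vehicle 1 to 3, and 1.08, 0.925 and 1.35 in DS-5272 1 to 3. The log2 ratio was higher in all 3 drug samples than in any vehicle sample, by 1.15 on average, with p = 0.1 in an exact two-sided permutation test, the smallest p that 3 against 3 can give. A ratio within a library does not move with the scaling between libraries.

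Of the repressors that work with pocket proteins, E2f4, the main E2F of resting cells, was at 60.1, 46.7 and 46.6 FPKM in vehicle 1 to 3 and at 40.3, 35.9 and 28.7 FPKM in DS-5272 1 to 3. The groups did not overlap, and vehicle 1 and DS-5272 1 were each the highest of their group. E2f4 fell by 0.54 on the log2 scale (SE 0.16, limma adjusted p = 0.0332), from 51.1 ± 7.76 to 34.9 ± 5.87 FPKM. Its call was lost in 6 alternatives, with no filter on low values and without vehicle 1, 2 or 3 or DS-5272 2 or 3, where the adjusted p reached 0.0974. E2f4 lies at chr8:105297663-105305370 on the plus strand.

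E2f5, its close relative, was the member with the least signal. It was at 1.44, 1.54 and 1.56 FPKM in vehicle 1 to 3 and at 1.33, 1.02 and 0.855 FPKM in DS-5272 1 to 3, or about 35 to 110 fragments per sample by the estimated depth. The groups did not overlap, but the log2 fold change of -0.29 (SE 0.14, 95% interval -0.63 to 0.05) did not pass the test (limma adjusted p = 0.134), nor did it under any alternative. On GRCm38 E2f5 lies at chr3:14578641-14606309 on the plus strand, where 1.46% of its exon bases overlap 1810022K09Rik on the opposite strand, a gene at 118 to 165 FPKM. The libraries were strand-specific but no source says that strand was used in counting, so reads of the 2 genes in the shared bases cannot be told apart.

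E2f6, the Polycomb-linked repressor, was at 17.7, 13.7 and 15.1 FPKM in vehicle 1 to 3 and at 9.51, 10.1 and 5.70 FPKM in DS-5272 1 to 3. All drug samples were below all vehicle samples, and DS-5272 3 was lowest. E2f6 fell by 0.83 on the log2 scale (SE 0.21, limma adjusted p = 0.0188), from 15.5 ± 2.04 to 8.43 ± 2.39 FPKM. Without vehicle 1 or vehicle 3 the adjusted p was 0.0632 or 0.0541. E2f6 lies at chr12:16810963-16839742 on the plus strand.

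The atypical repressors E2f7 and E2f8 were among the most reduced members. E2f7 was at 7.96, 6.97 and 5.85 FPKM in vehicle 1 to 3 and at 1.27, 2.34 and 0.465 FPKM in DS-5272 1 to 3. The lowest vehicle sample was above the highest drug sample, and DS-5272 3 held only about 59 fragments by the estimated depth. E2f7 fell by 1.82 on the log2 scale (SE 0.30, limma adjusted p = 0.00516), and only 1.29% of tested genes had a lower fold change. The vehicle mean of 6.93 ± 1.06 FPKM was 5.11 times the DS-5272 mean of 1.36 ± 0.938 FPKM. The gene lies at chr10:110745439-110787384 on the plus strand, and 0.955% of its exon bases overlap the antisense 1700020G17Rik, which was listed at 0 in all samples.

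E2f8 was at 62.1, 69.0 and 63.1 FPKM in vehicle 1 to 3 and at 18.6, 40.5 and 23.5 FPKM in DS-5272 1 to 3. DS-5272 2 kept clearly more E2f8 than the other drug samples but stayed below all vehicle samples. E2f8 fell by 1.28 on the log2 scale (SE 0.26, limma adjusted p = 0.00969), and its vehicle mean of 64.7 ± 3.76 FPKM was 2.35 times the DS-5272 mean of 27.5 ± 11.5 FPKM. E2f8 lies at chr7:48866429-48881596 on the minus strand, and 11.2% of its exon bases overlap Gm2788 on the opposite strand, which was at 3.99 to 4.44 FPKM in vehicle and 1.54 to 2.06 FPKM in DS-5272 samples. The calls of E2f7, E2f8 and Rbl1 held under every alternative run for them. The ratio of E2f8 to E2f7 was 7.79, 9.90 and 10.8 in vehicle and 14.7, 17.3 and 50.5 in DS-5272 samples, a log2 difference of 1.32 (exact two-sided permutation p = 0.1). The value of 50.5, in DS-5272 3, rests on only about 59 fragments of E2f7.

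The 2 pocket protein genes of the group separated. Rbl1, which encodes p107 and is itself a gene of cycling cells, was at 32.1, 27.6 and 26.5 FPKM in vehicle 1 to 3 and at 10.8, 14.8 and 7.42 FPKM in DS-5272 1 to 3. All drug samples were far below all vehicle samples. Rbl1 fell by 1.35 on the log2 scale (SE 0.23, limma adjusted p = 0.00549), with a vehicle mean of 28.7 ± 2.94 FPKM, 2.61 times the DS-5272 mean of 10.99 ± 3.67 FPKM. Rbl1 lies at chr2:157145893-157204534 on the minus strand.

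Rbl2, which encodes p130, the pocket protein of resting cells, was at 16.6, 14.2 and 13.7 FPKM in vehicle 1 to 3 and at 14.3, 15.4 and 28.2 FPKM in DS-5272 1 to 3. DS-5272 1 and 2 lay within the vehicle range and DS-5272 3 stood alone above it. The log2 fold change of 0.30 (SE 0.25, 95% interval -0.30 to 0.89) did not pass the test (limma adjusted p = 0.354), and without DS-5272 3 it was 0.0032. On GRCm38 Rbl2 lies at chr8:91070057-91123844 on the plus strand, and 21.0% of its exon bases overlap genes on the opposite strand. Of these, Aktip was at 6.08 to 6.55 FPKM in vehicle and at 6.29, 6.23 and 8.39 FPKM in DS-5272 1 to 3. Aktip was thus also highest in DS-5272 3. As for E2f5, reads of genes on opposite strands cannot be told apart in the shared bases.

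The ratio of Rbl2 to Rbl1 was nearly the same in the 3 vehicle samples, at 0.519, 0.515 and 0.516. It was 1.32, 1.04 and 3.80 in DS-5272 1 to 3. By FPKM, Rbl2 was thus the higher of the pair in each drug sample, though by little in DS-5272 2, and the lower in each vehicle sample. The exon overlap of Rbl2 given above bears on this ratio as well. The log2 ratio differed by 1.75 (exact two-sided permutation p = 0.1). For the 3 ratios given here, permutation p adjusted by the Benjamini-Hochberg method is also 0.1. The ratios of E2f8 to E2f7 and Rbl2 to Rbl1 were chosen after the values were seen, and the adjustment does not cover that choice.

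**Figure D3:**
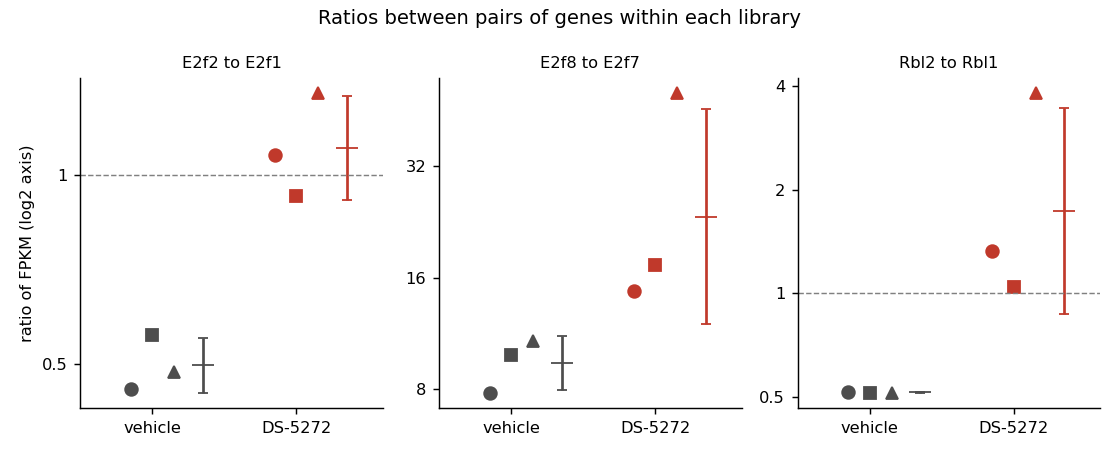
Ratio of the FPKM of E2f2 to E2f1, E2f8 to E2f7 and Rbl2 to Rbl1 within each sample (y axis, log scale) for the vehicle and DS-5272 samples (shapes mark replicates 1 to 3), with the mean of the log2 ratio and bars of 1 SD. In all 3 panels the drug samples lie above the vehicle samples, and the vehicle samples of Rbl2 to Rbl1 lie between 0.515 and 0.519.

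Summed over E2f1 to E2f8, the E2F mRNA pool was 201, 193 and 184 FPKM in vehicle 1 to 3 and 113, 140 and 96.2 FPKM in DS-5272 1 to 3, and the vehicle mean was 1.65 times the drug mean. The summed repressors (E2f4 to E2f8) were at 140 ± 8.67 FPKM in vehicle and 73.3 ± 15.4 FPKM in DS-5272 samples, and the summed activators (E2f1 to E2f3) at 52.6 ± 1.996 and 43.1 ± 6.81 FPKM. The vehicle mean was thus 1.91 times the drug mean for the summed repressors and 1.22 times for the summed activators. By gene, the 2 classes overlapped. This ratio was 1.66, 0.767 and 1.55 for E2f1, E2f2 and E2f3. For E2f4, E2f5, E2f6, E2f7 and E2f8 it was 1.46, 1.42, 1.84, 5.11 and 2.35.

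The activator share of the pool was 25.6, 28.5 and 28.0% in vehicle 1 to 3 and 37.0, 36.0 and 38.5% in DS-5272 1 to 3. Every drug sample was above every vehicle sample, by 9.79 percentage points on average (27.4 ± 1.55% against 37.2 ± 1.28%), and by 8.91 to 10.4 points when any 1 sample was left out. Among the activators, E2f2 went from 8.30 ± 1.21% of the pool in vehicle to 18.1 ± 2.46% in DS-5272 samples, while E2f1 was at 16.6 ± 1.13% and 16.3 ± 1.08%. Among the repressors, E2f8 was at 33.7 ± 2.50% and 23.3 ± 6.26%, E2f7 at 3.59 ± 0.394% and 1.09 ± 0.592%, and E2f4 at 26.5 ± 3.04% and 30.4 ± 5.14%. These shares follow from the members' levels given above and are a description with no test.

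**Figure D4:**
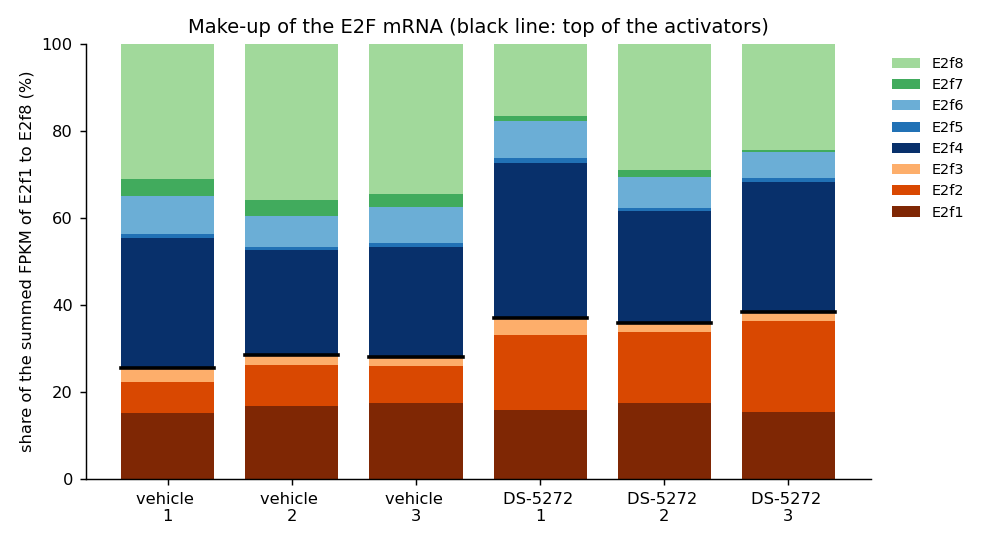
Share of each E2F gene in the summed FPKM of E2f1 to E2f8 (y axis, percent), stacked for each of the 6 samples. The activators together make up 25.6 to 28.5% of the pool in vehicle and 36.0 to 38.5% in DS-5272 samples, and the E2f2 segment is at 7.001 to 9.39% in vehicle and 16.2 to 20.9% in DS-5272 samples.

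The members with the largest changes were E2f7, Rbl1 and E2f8, and the genes with the most similar profile over the 6 samples were sought for these and for E2f2, by the smallest root mean square difference of centred log2(FPKM + 1) values. Near to E2f7 were Plk4, a centriole duplication kinase (0.0902), and Cenpi, a centromere gene (0.0919). Nearest to Rbl1 were 6330503K22Rik (0.0498), Rnaseh2b, a subunit of a ribonuclease of DNA replication and repair (0.0512), and 4930427A07Rik (0.0564). Nearest to E2f8 were Hddc2 (0.0291), BC022960 (0.0829) and the chromatin gene Dek (0.0864), and nearest to E2f2 were Rab1b (0.0812), Gm2444 (0.0818) and Mest (0.0830).

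Genes that act with the E2F and pocket proteins were described from lists of known partners, kinases and targets, beside 22.0% of tested genes that fell and 24.2% that rose. Both DP partner genes fell. Tfdp1, the main partner, was at 181, 168 and 181 FPKM in vehicle 1 to 3 and at 100.2, 128 and 90.8 FPKM in DS-5272 1 to 3 (log2 fold change -0.74, limma adjusted p = 0.00800). Tfdp2 was far lower, at 2.17 to 2.63 FPKM in vehicle and 0.619 to 0.897 FPKM in DS-5272 samples (log2 fold change -0.95, limma adjusted p = 0.00397).

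MuvB is the core that joins p107 or p130 with E2F4 in the DREAM repressor complex, and later pairs with MYB and FOXM1 proteins. Of 7 genes of this list, 3 (Lin54, Mybl2 and Foxm1) had no entry of their own, and of the other 4, 3 fell and none rose. Lin9 (log2 fold change -1.08, limma adjusted p = 0.00333) and Rbbp4 (log2 fold change -0.75, adjusted p = 0.00767) fell, and Lin52 fell by less (log2 fold change -0.37, adjusted p = 0.0478), a call lost in 7 alternatives. Lin37 was at 12.7 to 13.6 FPKM in vehicle and 14.3 to 16.3 FPKM in DS-5272 samples and did not pass (log2 fold change 0.20, limma adjusted p = 0.131), with a value of -0.053 after scaling to a common total.

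The cyclins and kinases that phosphorylate pocket proteins differed among themselves. Of 9 genes, 7 were tested, 5 fell and 1 rose, with a median log2 fold change of -1.31. Those that fell were, each with its log2 fold change and limma adjusted p, Ccna2 (-2.76, 0.0152), Ccne1 (-1.81, 0.0138), Ccne2 (-1.57, 0.0111), Cdk4 (-1.31, 0.00793) and Cdk2 (-0.87, 0.00375). Ccnd3 rose from 109, 97.2 and 104 FPKM in vehicle 1 to 3 to 260, 220 and 272 FPKM in DS-5272 1 to 3 (log2 fold change 1.27, limma adjusted p = 0.00124). The Ccna2 call was lost without vehicle 2 (adjusted p = 0.0510). Cdk6 did not pass (log2 fold change -0.30, limma adjusted p = 0.0988), but fell with the replicate block (adjusted p = 0.0314), with quantile normalization (0.0357) and without DS-5272 1 (0.0321). Ccnd1 and Ccnd2 were below the filter, with means of 0.495 and 0.0526 FPKM in vehicle and 1.31 and 0.753 FPKM in DS-5272 samples, and both were highest in DS-5272 1.

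Of 7 genes for inhibitors of these kinases, 6 were tested, 1 rose and 1 fell, and with the replicate block 3 rose and 2 fell. Cdkn1b, which encodes p27, was at 18.4, 25.2 and 24.5 FPKM in vehicle 1 to 3 and 35.8, 47.8 and 77.0 FPKM in DS-5272 1 to 3 and rose (log2 fold change 1.14, limma adjusted p = 0.0163), a call lost without vehicle 1 (adjusted p = 0.0548). Cdkn1c, which encodes p57, fell (log2 fold change -2.13, limma adjusted p = 0.00490). Cdkn1a, the p53 target that encodes p21, is named here after its values were seen. It was at 14.8, 28.1 and 25.5 FPKM in vehicle 1 to 3 and at 32.3, 117 and 485 FPKM in DS-5272 1 to 3. The groups did not overlap, but the drug samples were spread so widely that the log2 fold change of 2.43 (SE 0.89) did not pass (limma adjusted p = 0.0611). With the replicate block the adjusted p was 0.0137, and without DS-5272 1 it was 0.0109. DS-5272 3, with the highest Cdkn1a level, was also the sample with the highest Rbl2 level and the lowest E2f7 and Rbl1 levels. The other 2 drug samples did not follow for E2f7 and Rbl1. DS-5272 1, with the lowest Cdkn1a level of the 3, had less E2f7 (1.27 against 2.34 FPKM) and less Rbl1 (10.8 against 14.8 FPKM) than DS-5272 2. A link between these levels was not tested.

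Of 4 genes for E2F protein turnover, 3 were tested and 2 fell. Fbxo5, which encodes the inhibitor EMI1 of the anaphase-promoting complex and is an E2F target, fell by 2.02 on the log2 scale (limma adjusted p = 0.00748). Skp2, the F-box gene of p27 turnover, fell by 1.54 (adjusted p = 0.0105).

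Of 11 genes for partners of E2F6 in its Polycomb complex, 10 were tested, 4 fell and 2 rose, where 22.0% and 24.2% of all tested genes did, with a median log2 fold change of -0.23. None rose without vehicle 2, and 1 rose without vehicle 1, vehicle 3 or DS-5272 2. Cbx3, a heterochromatin protein gene, fell by 1.02 on the log2 scale (limma adjusted p = 0.00577), L3mbtl2 fell by 0.73 (adjusted p = 0.00809) and the deacetylase gene Hdac2 fell by 0.72 (adjusted p = 0.00415), whereas Rybp rose by 0.78 (adjusted p = 0.0140, but 0.0513 without vehicle 2). Of 10 germline genes that E2F6 is known to silence in somatic cells, 9 had a mean over the 6 samples of 0.0915 FPKM or less and were not tested. Of these, Tdrkh and Smc1b, named after their values were seen, were higher in each drug sample than in any vehicle sample. Their means were 0.107 against 0.00615 FPKM and 0.0464 FPKM against a listed 0. Both lay near the floor. Tdrkh was at 0.270, 0.0371 and 0.0149 FPKM in DS-5272 1 to 3 and at up to 0.00980 FPKM in vehicle. The drug libraries had the lower estimated depths, where a single fragment gives a higher FPKM, so this order is not read as a change. The tested gene, Stag3, was at 3.33 to 5.80 FPKM in vehicle and 1.95 to 3.12 FPKM in DS-5272 samples and fell by 0.67 on the log2 scale (limma adjusted p = 0.0371), a call lost with no filter on low values and without vehicle 2 or 3 or DS-5272 1 or 3 (adjusted p up to 0.119).

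The G1/S and G2/M target lists had lower medians than the members. All 37 tested genes of a list of 38 replication and nucleotide genes driven by E2F in G1/S fell, with a median log2 fold change of -1.68. Tk1 (thymidine kinase), at 26.0 to 29.6 FPKM in vehicle and 1.78 to 9.22 FPKM in DS-5272 samples, fell by 2.45 on the log2 scale (limma adjusted p = 0.00615). The primase gene Prim1 fell by 2.40 (adjusted p = 0.00808) and the DNA ligase gene Lig1 fell by 2.28 (adjusted p = 0.00720). All 20 genes of a list of mitotic genes bound by MuvB fell as well, with a median of -2.29, but 13 fell without vehicle 2 and 14 without vehicle 1. Among them Ccnb2 fell by 3.33 (limma adjusted p = 0.0117), the survivin gene Birc5 fell by 2.85 (adjusted p = 0.0190) and Ccnb1 fell by 2.83 (adjusted p = 0.0119), and the Birc5 call was lost when any vehicle sample was left out (adjusted p up to 0.0594). In Tk1, Prim1, Lig1, Ccnb1, Ccnb2 and Birc5 the highest drug sample was DS-5272 2 and the lowest DS-5272 3, an order also held by E2f1, E2f6, E2f7 and Rbl1.

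Of 9 apoptosis genes that E2F1 is known to activate, 8 were tested, none fell and 2 rose in limma, near the 24.2% of all tested genes that rose, with a median log2 fold change of 0.35. Bcl2l11, which encodes the BH3-only protein BIM, was at 7.79 to 8.78 FPKM in vehicle and 12.4 to 31.8 FPKM in DS-5272 samples and rose by 1.13 on the log2 scale (limma adjusted p = 0.0228), a call lost when any vehicle sample or DS-5272 2 was left out (adjusted p up to 0.0679). Map3k5, a stress kinase gene, was at 1.97 to 2.62 against 3.99 to 7.09 FPKM and rose by 0.92 (adjusted p = 0.0107). The other 6 tested genes of the list were not called, and the part of E2F1 or of the activated p53 in these values was not tested. Across the pathway lists, 75 distinct genes fell and 6 rose, and 3 rose without vehicle 1 or vehicle 2. The lists were chosen for known roles with earlier results of these data in view, and many of their genes are also read as markers of cycling cells, so their counts are a description.

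**Figure D5:**
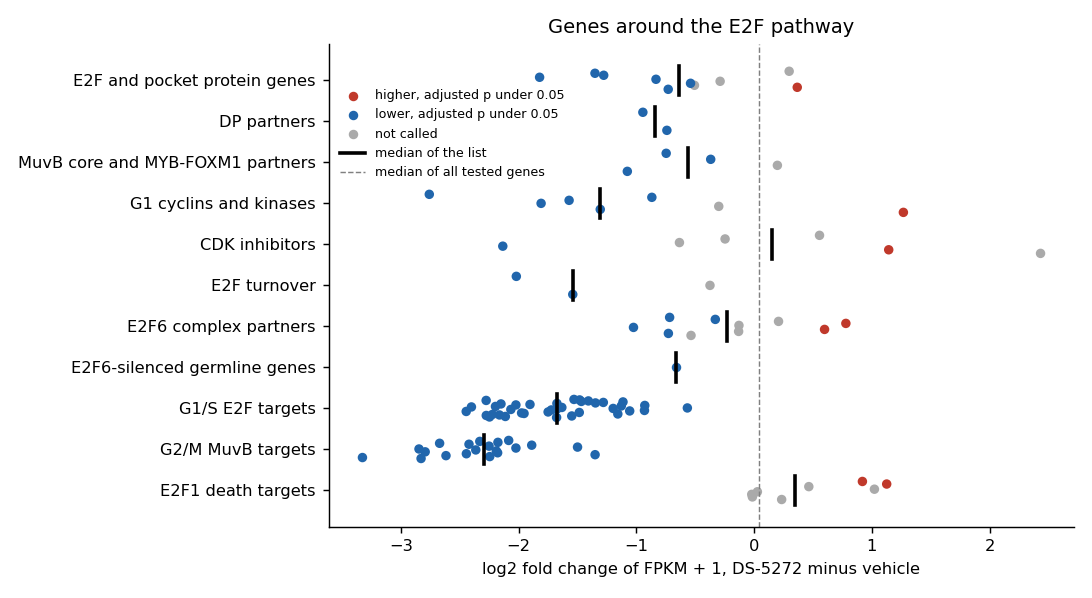
Log2 fold change on the log2(FPKM + 1) scale, DS-5272 minus vehicle (x axis), of each tested gene in the pathway lists, with the members in the top row (points, 1 row per list, coloured by call), with the list medians and the median of all tested genes, 0.04. The G1/S and G2/M target lists lie wholly below 0 with medians of -1.68 and -2.29, while the list of apoptosis genes known to be driven by E2F1 has a median of 0.35.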

How the data were processed

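The authors prepared strand-specific RNA libraries from sorted leukemia cells, trimmed the reads with cutadapt 1.8.1, checked them with FastQC, aligned them to GRCm38 with TopHat2 2.1.1 and computed FPKM values with Cufflinks 2.2.1, per the labels and the study's methods. The deposited table holds FPKM values only, already divided by transcript length and library size, so no count model was used. It has 26632 lines and 26082 names, and the lines of 435 repeated names were added up. The 433 lines that join several genes were kept under their joint name, so genes found only there have no value of their own.

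The 11130 genes that averaged 1 FPKM or more were fitted together on log2(FPKM + 1) with limma 3.58.1 in R 4.3.3 (lmFit, then eBayes with trend, two-sided), and p was adjusted by the Benjamini-Hochberg method with a threshold of 0.05. Fold changes on this scale understate those of low genes. Ratios of members were tested by exact permutation in Python 3.11.15 with scipy 1.17.1, and those of E2f8 to E2f7 and Rbl2 to Rbl1 were added after the values were seen.

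Groups were taken from the treatment labels. Same-numbered samples are not stated to be paired. Their deviations from the group means correlated in each of the 3 pairs (0.66, 0.21 and 0.43, all above the limit of 0.1). Vehicle 2 with DS-5272 3 (0.34) and vehicle 3 with DS-5272 2 (0.18) also lay above this limit. The other differently numbered pairs were negative (-0.58 to -0.24). These correlations cannot show pairing by number, so fits with the replicate number as a block are given only as an alternative, where they change a call. Alternatives covered the pseudocount, the filter, 4 scalings between libraries, the block, the trend, rows that share a name, a minimum fold change and leaving out each sample.

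Named genes were all members, all genes of the lists of DP partners, MuvB and G1 cyclins and kinases, of each other list the 3 called genes that changed most on the side of the list's median and the 1 on the other side, and the 3 nearest profiles to 4 members, of which 1 is not reported here. Members and lists were chosen with earlier results of these data known. Approximate fragments per gene came from depths estimated from the steps of low values, whose scale rests on 343 genes. Gene positions and exon overlaps are from GENCODE M21 on GRCm38, and promoter windows from RefSeq on GRCm38.p6.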

Additional observations from a re-analysis of the deposited data

How the results depend on the processing

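The 3 members called with the largest changes, E2f7, E2f8 and Rbl1, kept their call and direction under all alternatives run for them, whereas the single higher call, E2f2, was fragile. The count of members called lower was 6 as reported, 3 when a log2 change of 1 or more was also required, and 3 to 6 when each sample was left out in turn, the lowest without vehicle 3. The count of members called higher was 1 as reported and 0 with no filter on low values, a common upper quartile, median-of-ratios scaling, a common total, quantile normalization, eBayes without trend or the same size minimum, and 0 whichever sample was left out. For all tested genes, 2697 rose as reported, 1717 with a common total and 978 with the size minimum, and 1623 to 2934 with a sample left out, the lowest without vehicle 2. Of these genes 2451 fell as reported, 3536 with a common total, 621 with the size minimum, and 1389 to 2432 with a sample left out, with 1389 without vehicle 2 and 1492 without vehicle 3. The higher calls in the pathway lists were 6, and 3 to 9 with a sample left out, with 3 without vehicle 1 or vehicle 2. Lin37 was 0.20 as reported and -0.053 with a common total. The cause of these shifts was not tested.

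The replicate block gave E2f3 a call (adjusted p = 0.0154) that it lacked otherwise, raised the members called lower to 7 and the higher calls in the pathway lists to 9, and gave 3367 higher and 2771 lower calls over all tested genes. It also called Cdk6 lower and Cdkn1a higher, and changed the call of no other member or gene named by the rule. By the estimated depths, E2f5 in all samples and E2f7 in DS-5272 3 rested on the fewest fragments.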
